A study of Mus musculus with 19 samples.

Results

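Lin28a, Lin28b, L1td1 and Trim71 encode RNA-binding proteins of pluripotent cells. These 4 genes were taken by name from the 12778 genes of the deposited expression matrix, and all 4 were present there with recovered reads. They were selected on their levels in the double knockout cells, in which L1td1 stayed high while Lin28a was lost. Their differences between double knockout cells and the other cells are therefore a description with no test.

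Gene expression was measured by QuantSeq, a method that reads the 3' ends of polyadenylated RNAs, in 19 mouse libraries of 6 groups. The induced pluripotent stem cells (iPSC) were made from mouse embryonic fibroblasts (MEF) with Oct4, Sox2 and Klf4 and were harvested after more than 18 passages. They were wild type (WT, 3 libraries), knockout for the miR-290 microRNA cluster (miR-290 KO), knockout for the miR-302 cluster (miR-302 KO) or knockout for both (double KO), with 2 colonies of 2 libraries each in every KO group. Embryonic stem cells (ESC) with the miR-290 KO or the miR-302 KO gave 2 libraries each, and libraries of WT ESC were not used here. All cells were kept in medium with LIF and fetal bovine serum. Each KO colony is a derivation of its own per the series description, which excepts the WT iPSC from that statement, so the 3 WT libraries may share a derivation and p-values against WT may measure only the spread between libraries. The description also allows that some reprogrammed cells are only iPSC-like.

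As background, Lin28a and Lin28b each carry a cold-shock domain and a pair of zinc knuckles. They bind precursors of let-7 microRNAs, bring in terminal uridylyl transferases that tag the precursor for decay, and so keep mature let-7 low in pluripotent cells. Mature let-7 in turn represses mRNAs with matching sites in their 3' untranslated regions (UTRs), among them Lin28a, Lin28b and Trim71. Trim71, the mammalian relative of the worm gene lin-41, is a TRIM-NHL protein that represses mRNAs. L1td1 descends from the first open reading frame of a LINE-1 retrotransposon and binds RNA in pluripotent cells. The miR-290 and miR-302 clusters supply a large share of the microRNAs of mouse pluripotent cells, and many of their members have the same seed, the bases that choose the targets.

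Mature sequences of the deleted clusters that share a seed, and of let-7, are shown because their seeds define the matches searched in the 4 genes. They come from RefSeq (GRCm38.p6) and are written 5′ to 3′ with bases 2 to 8, the seed, in capitals. The first 5 share the seed AAGUGCU, and all 9 mature let-7 and miR-98 sequences of the 5′ arm in the table share the seed of the last 2. Other members of the clusters, among them miR-290a-3p, miR-291b-3p, miR-293-3p, miR-302c-3p and miR-367-3p, have other seeds, which were not searched.
miR-291a-3p (miR-290 cluster): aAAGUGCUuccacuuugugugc
miR-294-3p (miR-290 cluster): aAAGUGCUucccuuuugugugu
miR-295-3p (miR-290 cluster): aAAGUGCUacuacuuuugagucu
miR-302b-3p (miR-302 cluster): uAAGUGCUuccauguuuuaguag
miR-302d-3p (miR-302 cluster): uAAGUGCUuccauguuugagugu
let-7a-5p: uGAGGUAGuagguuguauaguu
let-7g-5p: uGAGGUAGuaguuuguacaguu

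The 3' UTRs of the 4 genes differed in length and in the matches they hold. The UTR of each gene's principal transcript was read from GENCODE M21 (GRCm38, the mm10 build). Matches were AGCACTT for the miR-290/miR-302 seed and CTACCTC for the let-7 seed, searched on the mRNA strand only, and an 8-base match also has an A after these letters. Among 11763 genes with a UTR, 16.3% held AGCACTT and 9.7% held CTACCTC. A match is a run of letters and not a shown site of action, and a gene without AGCACTT may still match other seeds of the clusters.

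Lin28a (chromosome 4, 134003330 to 134018841, minus strand) has a 3' UTR of 2775 bases with 2 let-7 matches, both of 8 bases, and no miR-290/miR-302 match. Of 1400 genes with a UTR within 20% of that length, 15.2% held a let-7 match and 2.3% held as many as Lin28a. Lin28b (chromosome 10, 45376620 to 45470201, minus strand) has a UTR of 4445 bases with 4 let-7 matches, of which 1 has 8 bases, and 1 miR-290/miR-302 match. As many let-7 matches occurred in 0.4% of 765 genes with UTRs of like length, and a miR-290/miR-302 match in 43.3%. Trim71 (chromosome 9, 114507133 to 114564369, minus strand) has a UTR of 5512 bases with 4 let-7 matches, all of 8 bases, and 1 miR-290/miR-302 match, against 0.9% and 54.8% of 456 genes of like length with as many. L1td1 (chromosome 4, 98726748 to 98738480, plus strand) has a short UTR of 364 bases with no match of either kind, as in most UTRs of that length: 4.1% of 952 held a let-7 match and 4.6% a miR-290/miR-302 match. The 3 let-7 targets of the background thus carry let-7 matches and L1td1 carries none.

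Of these matches, 7 are shown in windows of 30 bases of the mRNA, 5′ to 3′, with the match in capitals and the coordinates of its first 7 bases. Both let-7 matches of Lin28a are given, then the 8-base let-7 match and the miR-290/miR-302 match of Lin28b, then the miR-290/miR-302 match of Trim71 and the pair of its let-7 matches that lie closest together.
Lin28a, let-7, chr4:134005190-134005196, minus strand: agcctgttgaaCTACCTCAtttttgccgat
Lin28a, let-7, chr4:134004552-134004558, minus strand: tcgccacaaacCTACCTCActgtgttgaaa
Lin28b, let-7, chr10:45381023-45381029, minus strand: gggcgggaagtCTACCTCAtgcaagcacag
Lin28b, miR-290/miR-302, chr10:45378524-45378530, minus strand: tcactgatatgAGCACTTgctcattcacac
Trim71, miR-290/miR-302, chr9:114510082-114510088, minus strand: aattggtgctaAGCACTTtggagagtgtac
Trim71, let-7, chr9:114509048-114509054, minus strand: gtatggattttCTACCTCAattttggcaaa
Trim71, let-7, chr9:114509022-114509028, minus strand: caaaaagttgtCTACCTCAcgtcggcaccg

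**Figure D1:**
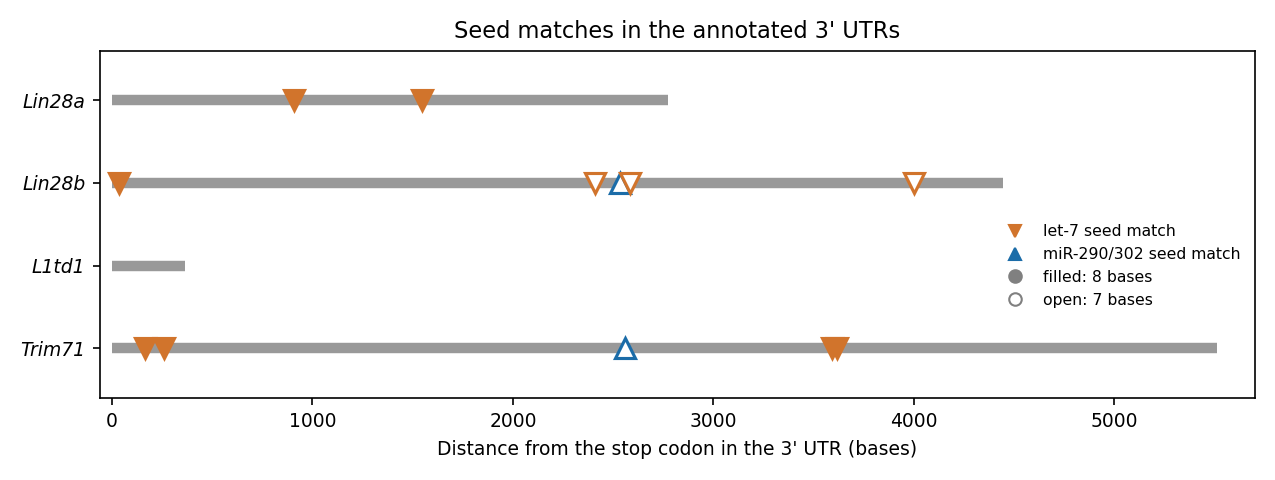
Seed matches along the annotated 3' UTRs of the 4 genes, with distance from the stop codon in bases on the x axis. Grey bars show UTR length, downward triangles let-7 matches and upward triangles miR-290/miR-302 matches, filled for 8 bases and open for 7; let-7 matches lie at bases 909 and 1547 in Lin28a, 4 each lie in Lin28b and Trim71, and L1td1 has none.

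Levels are given in CPM, which are whole reads recovered from the deposited log2 values and scaled to a common library size. A library held between 6435997 and 24974510 recovered reads (median 17459410), and 3 reads over a group correspond to between 0.0433 and 0.0863 CPM. One miR-302 KO iPSC library, the second of colony 1, stood apart: its 20 most abundant genes took 17.1% of the reads against 8.62% to 13.5% in the others, and its mean correlation with its group was 0.852 against 0.904 or more. In bulk samples, fewer cells that express a gene and less RNA per cell cannot be told apart. CPM are not set between genes, only between libraries for a gene.

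The labelled cell type was checked with 5 markers of pluripotent cells (Pou5f1, Sox2, Nanog, Esrrb and Zfp42). Their summed level was 1813 to 2344 CPM in WT iPSC, 1776 to 3598 in miR-290 KO iPSC and 2370 to 3381 in miR-302 KO iPSC. It was 1934 to 2328 CPM in miR-290 KO ESC and 2318 to 2644 in miR-302 KO ESC. In double KO iPSC it was 48.6 to 76.1 CPM. The double KO cells thus lack most of the pluripotency marker RNA of the other 5 groups, and are called double KO iPSC here as labelled. Values for other cell types in the same libraries are given after the 4 genes.

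Lin28a, the Lin28 paralog best known from pluripotent cells, was high in every group but the double KO. The WT iPSC libraries held 349, 234 and 229 CPM. In miR-290 KO iPSC, colony 1 held 113 and 145 CPM and colony 2 held 229 and 135. In miR-302 KO iPSC, colony 1 held 128 and 248 CPM and colony 2 held 190 and 122. The WT libraries were at the top of the range, with the highest library of each single KO reaching the lower WT values. The miR-290 KO ESC libraries held 152 and 193 CPM, and the miR-302 KO ESC libraries 197 and 222. The double KO iPSC libraries held 0.19 and 0.572 CPM in colony 1, from 3 and 8 reads, and 0.403 and 0.483 CPM in colony 2, from 7 and 8 reads. No double KO library came near the lowest of the other libraries, and both colonies were low.

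Averaged over libraries of a colony, the group means ± SD of Lin28a were 271 ± 67.9 CPM in WT iPSC (n = 3), 156 ± 37.3 in miR-290 KO iPSC (n = 2) and 172 ± 22.5 in miR-302 KO iPSC (n = 2). They were 173 ± 28.5 CPM in miR-290 KO ESC, 210 ± 17.3 in miR-302 KO ESC and 0.412 ± 0.0436 in double KO iPSC (n = 2 each). From the top, WT iPSC, miR-302 KO ESC and miR-290 KO ESC did not overlap with one another. Below them, miR-290 KO ESC, miR-302 KO iPSC and miR-290 KO iPSC overlapped, and the double KO stood alone at the bottom. Such orders, here and below, describe 2 or 3 samples per group, and the share of all genes that separate likewise was not computed. With all reads of a group pooled, Lin28a was 671 times higher in WT than in double KO (exact 95% interval 458 to 1027, counting error only). The same ratio was 402 for miR-290 KO iPSC (274 to 616) and 401 for miR-302 KO iPSC (273 to 614). On the log2 scale of the deposited values, which holds a small prior and understates the change of low genes, double KO minus WT was -8.96 (SE 0.25).

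Lin28b, the second Lin28 paralog, was at its highest in miR-290 KO cells. The WT iPSC libraries held 11.7, 14.7 and 13.3 CPM. In miR-290 KO iPSC, colony 1 held 21 and 22.4 CPM and colony 2 held 28 and 27.4, all 4 above every WT library. In miR-302 KO iPSC, colony 1 held 13.9 and 16 CPM and colony 2 held 10.5 and 14, across the WT range. In these samples miR-290 KO iPSC thus stood above WT, a difference not called in the test below, and miR-302 KO iPSC did not. The ESC showed the same order, with 17.5 and 21.4 CPM in miR-290 KO and 7.23 and 11.2 in miR-302 KO. In double KO iPSC, colony 1 held 0.57 and 0 CPM, from 9 and 0 reads, and colony 2 held 0 and 0.0603 CPM, from 0 and 1 read. In the double KO, 9 of the 10 Lin28b reads thus came from a single library, and no library reached the lowest of the other groups.

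The group means ± SD of Lin28b were 24.7 ± 4.27 CPM in miR-290 KO iPSC, 19.5 ± 2.75 in miR-290 KO ESC, 13.6 ± 1.9 in miR-302 KO iPSC and 13.2 ± 1.51 in WT iPSC. They were 9.23 ± 2.83 CPM in miR-302 KO ESC and 0.158 ± 0.18 in double KO iPSC. In that order, miR-302 KO iPSC and WT iPSC overlapped and the other neighbours did not. Pooled over libraries, WT exceeded double KO by 84.3 times (exact 95% interval 45.6 to 177), miR-290 KO iPSC by 156 times (84.5 to 326) and miR-302 KO iPSC by 84.7 times (45.8 to 177). Without the library with 9 reads, 1 read in 3 double KO libraries gave ratios of 634 (113 to 25087), 1172 (210 to 46322) and 637 (114 to 25183), so the size of the ratio rests on that library. The log2 difference of double KO from WT was -5.84 (SE 0.33). It was -3.64 with 1 CPM added before the logarithm.

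L1td1, the LINE-1 derived gene, kept about the same level in all 6 groups. The WT iPSC libraries held 501, 432 and 322 CPM. The miR-290 KO iPSC held 484 and 449 CPM in colony 1 and 547 and 429 in colony 2. The miR-302 KO iPSC held 384 and 729 CPM in colony 1, where 729 is from the library that stood apart, and 533 and 369 in colony 2. None of these 3 groups was separate from another. The ESC held 462 and 480 CPM with the miR-290 KO and 494 and 432 with the miR-302 KO. The double KO iPSC held 550 and 516 CPM in colony 1 and 651 and 693 in colony 2. All 4 double KO libraries were above all 3 WT libraries and within the range of the miR-302 KO iPSC, but without the library that stood apart that range ended at 533 CPM and 3 of the 4 double KO libraries lay above it.

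The group means ± SD of L1td1 ran from 418 ± 90.3 CPM in WT iPSC to 602 ± 98.6 in double KO iPSC, with 477 ± 15.1 in miR-290 KO iPSC, 503 ± 74.8 in miR-302 KO iPSC, 471 ± 12.3 in miR-290 KO ESC and 463 ± 43.6 in miR-302 KO ESC between them. Each group overlapped with its neighbour in that order. With reads pooled, L1td1 in double KO iPSC was 1.43 times its WT level, 1.23 times that of miR-290 KO iPSC and 1.27 times that of miR-302 KO iPSC. The log2 difference of double KO from WT was 0.54 (SE 0.20), and 0.39 with median-of-ratios scaling, which moved the median of all genes in this comparison from 0.16 to 0.01. Over the 11 samples other than the double KO, the SD of the log2 value was 0.19 for L1td1, 0.39 for Lin28a, 0.53 for Lin28b and 1.06 for Trim71. With the double KO, whose levels chose the genes, the SDs were 0.24, 3.22, 2.32 and 1.16.

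Trim71, the TRIM-NHL repressor, varied most within groups. The WT iPSC libraries held 4.16, 8.03 and 21.6 CPM. The miR-290 KO iPSC held 24.9 and 7.52 CPM in colony 1 and 26.9 and 28.7 in colony 2. The miR-302 KO iPSC held 30.4 and 63.3 CPM in colony 1, with 63.3 in the library that stood apart, and 20.4 and 16.8 in colony 2. The KO libraries were mostly above the WT ones, and both KO groups overlapped with WT. The ESC held 12.4 and 8.82 CPM with the miR-290 KO and 10.9 and 49 with the miR-302 KO. The double KO iPSC held 3.55 and 4.15 CPM in colony 1 and 7.48 and 5.07 in colony 2. These were within or just below the lower part of the WT range and under every library of the single KO cells.

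The group means ± SD of Trim71 were 32.7 ± 20 CPM in miR-302 KO iPSC, 29.9 ± 26.9 in miR-302 KO ESC, 22 ± 8.19 in miR-290 KO iPSC, 11.3 ± 9.15 in WT iPSC, 10.6 ± 2.56 in miR-290 KO ESC and 5.06 ± 1.72 in double KO iPSC. Of the neighbours in that order, only miR-290 KO ESC and double KO did not overlap. With reads pooled, WT iPSC exceeded double KO by 2.03 times (exact 95% interval 1.76 to 2.33, counting error only), miR-290 KO iPSC by 4.27 times (3.78 to 4.82) and miR-302 KO iPSC by 5.61 times (4.98 to 6.32). The log2 differences of double KO were -0.87 from WT (SE 0.69), -1.97 from miR-290 KO iPSC (SE 0.76) and -2.52 from miR-302 KO iPSC (SE 0.76). Across alternative settings and left-out samples, the difference from WT ran from -1.41 to -0.24, reaching -1.41 without WT library 1 and -0.24 without WT library 3.

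**Figure D2:**
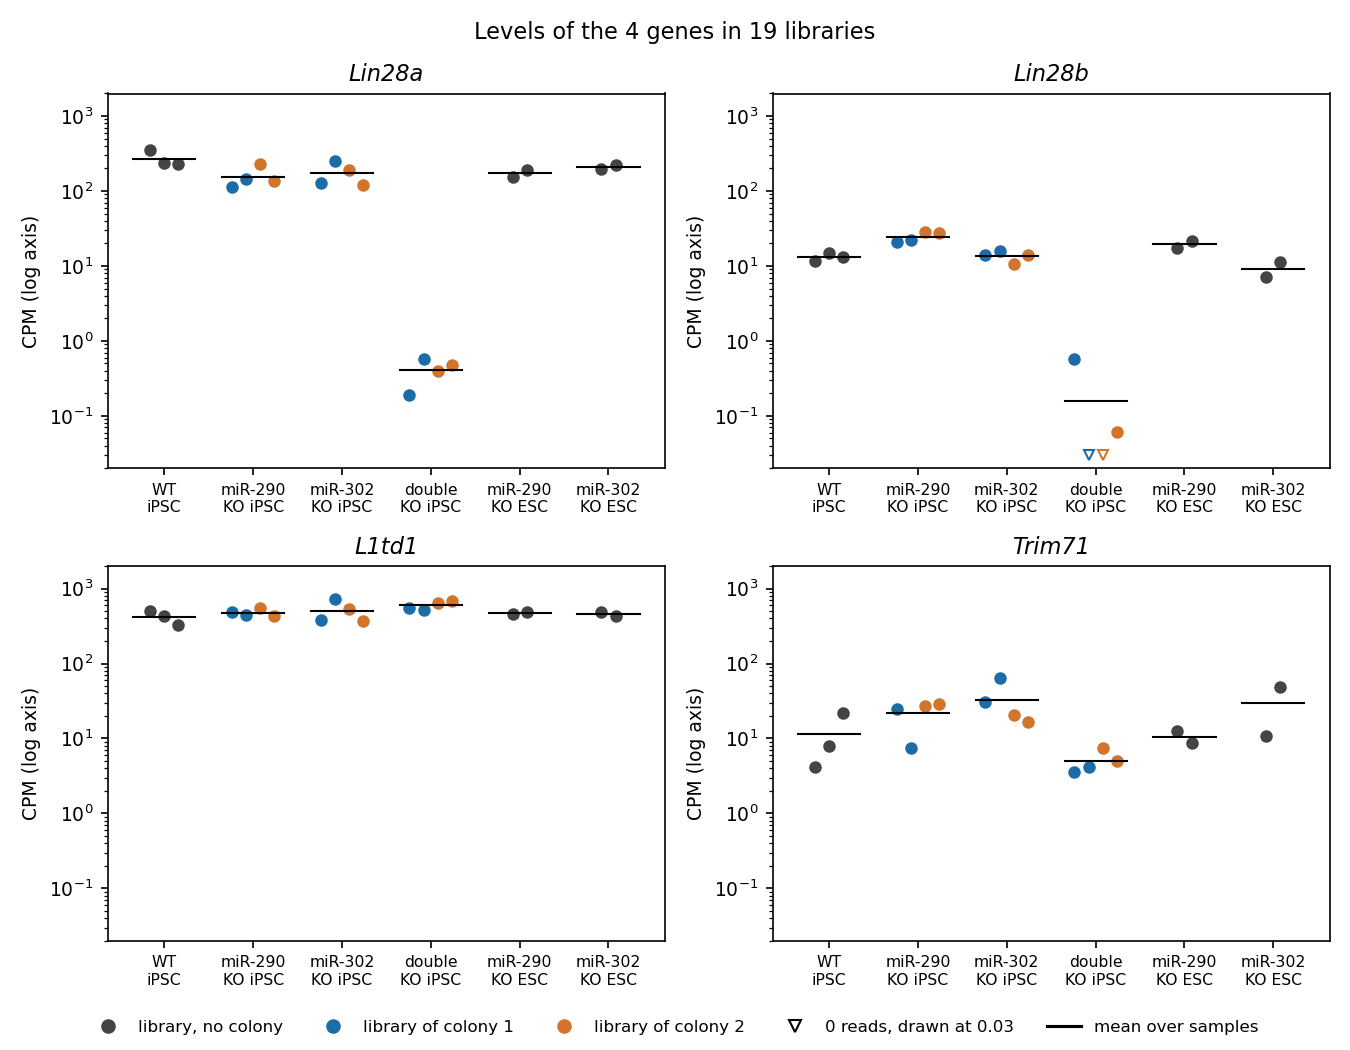
Levels of the 4 genes in CPM on a log axis, 1 point per library, by group on the x axis. Black lines are means over samples (libraries of a colony averaged); open triangles mark 0 reads. Lin28a and Lin28b average 0.412 and 0.158 CPM in the double KO, L1td1 stays between 322 and 729 CPM in all libraries, and Trim71 spreads from 3.55 to 63.3 CPM.

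The same genes appear in part in the authors' deposited table of double KO against WT iPSC, which lists genes with an adjusted p of at most 0.05. In the authors' deposited table, the log2 fold change was -9.68 for Lin28a, -6.68 for Lin28b and -1.40 for Trim71, and L1td1 had no row. In the authors' deposited table of miR-290 KO against WT iPSC, Lin28a had -0.93 (adjusted p = 0.0214) and Lin28b 0.76 (adjusted p = 0.0388). In the authors' deposited table of miR-302 KO against WT iPSC, none of the 4 genes had a row. These values treat the libraries in the authors' own model, whose sample units are not given in the sources used here.

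The question of what each single cluster's loss does to the 4 genes was tested, since these comparisons did not choose them. Tests used limma on the deposited log2 values, with libraries of a colony averaged, and adjusted p-values (Benjamini-Hochberg) over all genes. Over 24 tests in 6 comparisons, none passed an adjusted p of 0.05. At an unadjusted p under 0.05 there were 6, and the lowest adjusted p was 0.129. Of all 12778 genes, 2136 were under that unadjusted p in miR-290 KO and 1928 in miR-302 KO iPSC against WT. There were 2364 in miR-290 KO against miR-302 KO iPSC and 1632 between the ESC genotypes. The iPSC against ESC comparisons had 492 (miR-290 KO) and 1343 (miR-302 KO). The 6 are thus not to be set against a rate of 0.05.

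In miR-290 KO iPSC against WT iPSC, 0 of the 4 genes were called, where 1.57% of all genes were. Lin28a had a log2 difference of -0.82 (SE 0.25, 95% interval -1.38 to -0.27) and an adjusted p of 0.129 by limma. Lin28b had 0.89 (SE 0.33, 95% interval 0.17 to 1.61) and an adjusted p of 0.204 by limma. The 2 Lin28 paralogs thus had estimates of opposite sign in this comparison, and neither passed the threshold here, although both are listed in the authors' deposited table. L1td1 had 0.21 (95% interval -0.23 to 0.64) and Trim71 had 1.10 (95% interval -0.40 to 2.60).

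In miR-302 KO iPSC against WT iPSC, 0 of the 4 genes were called, where 0.0313% of all genes were. Lin28a had a log2 difference of -0.69 (SE 0.25) and an adjusted p of 0.282 by limma. Trim71 had 1.65 (SE 0.69, 95% interval 0.15 to 3.15) and an adjusted p of 0.305 by limma. Without the library that stood apart, no gene of the 4 was called either. Lin28b had 0.03 (95% interval -0.69 to 0.75) and L1td1 had 0.23 (95% interval -0.20 to 0.67), so a change of L1td1 of more than 0.67 on the log2 scale lies outside its interval.

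Against each other, miR-290 KO and miR-302 KO iPSC gave 0 calls among the 4 genes, where 2.25% of all genes were called. Lin28b had a log2 difference of 0.86 (SE 0.36, 95% interval 0.07 to 1.65) and an adjusted p of 0.232 by limma. The other 3 had -0.14 for Lin28a, -0.03 for L1td1 and -0.54 for Trim71. In ESC, the same pair of genotypes gave 0 calls among the 4 genes, where 0.587% of all genes were called. There Lin28b had 1.09 (SE 0.36, 95% interval 0.30 to 1.88) and an adjusted p of 0.227 by limma. Lin28b was thus higher with the miR-290 KO than with the miR-302 KO in all samples of either cell origin, without passing the correction. Trim71 had -1.13 in ESC (95% interval -2.78 to 0.51), Lin28a -0.29 and L1td1 0.03.

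Cell origin was compared at the same genotype. In miR-290 KO iPSC against miR-290 KO ESC, 0 of the 4 genes and 0% of all genes were called by limma, with 492 genes at an unadjusted p under 0.05. The log2 differences were -0.19 for Lin28a, 0.34 for Lin28b, 0.01 for L1td1 and 0.89 for Trim71. In miR-302 KO iPSC against miR-302 KO ESC, 0 of the 4 genes and 0% of all genes were called by limma, with 1343 genes at an unadjusted p under 0.05. The log2 differences were -0.34 for Lin28a, 0.57 for Lin28b, 0.07 for L1td1 and 0.30 for Trim71. The 95% intervals for L1td1 were -0.47 to 0.49 and -0.41 to 0.55. A test of whether the difference between iPSC and ESC depends on the genotype also called 0 of the 4 genes and 0% of all genes, with 552 genes at an unadjusted p under 0.05.

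**Figure D3:**
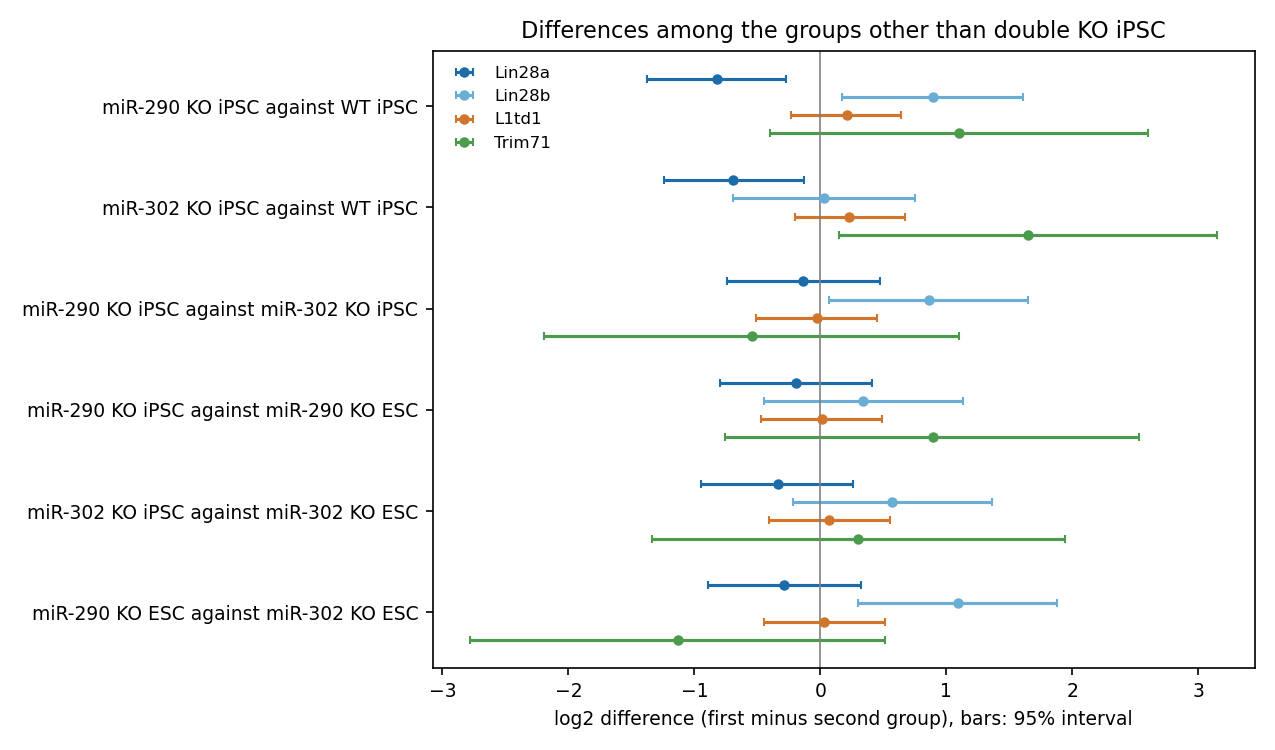
log2 differences of the 4 genes in the 6 comparisons that did not choose them, first group minus second, with 95% intervals from limma. Intervals of Lin28a lie below 0 in both comparisons of a single KO with WT, those of Lin28b lie above 0 in 3 comparisons that involve the miR-290 KO, those of L1td1 all include 0, and those of Trim71 are the widest; none passed the adjusted p of 0.05.

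Across the 13 samples the log2 values of Lin28a and Lin28b had a Pearson r of 0.96, and an r of -0.42 over the 11 samples left without the double KO, so the likeness of the 2 paralogs came from the double KO samples. Lin28a and L1td1 had -0.62 over 13 samples and -0.12 without the double KO, again a relation that the double KO samples carry. Among 3350 genes with an SD of at least 1 over the samples, those most like Lin28a were Gm13139 (r = 0.999), Znf41-ps (0.996), Gm13251 (0.995), 2610305D13Rik (0.995) and 1700097N02Rik (0.994). The genes most opposed to it were Dcaf10 (-0.987), Tmem47 (-0.987) and Cyfip2 (-0.985). For Lin28b the most alike were Mylpf (0.990), Smim3 (0.989), Csrnp3 (0.989), Cnp (0.988) and 4931428F04Rik (0.988), and the most opposed Lrp1 (-0.978), Nfib (-0.974) and Nab1 (-0.964). Here too the samples share a split into double KO and the rest.

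The r values for L1td1 were lower: Krtdap (r = 0.855), Rab11fip2 (0.835), Tmem198 (0.834), Map3k6 (0.832) and Il2rg (0.827) were the most alike, and E330020D12Rik (-0.838), Zscan5b (-0.819) and Eepd1 (-0.812) the most opposed. The genes named for L1td1 also split into double KO and the rest. Their log2 difference of double KO from WT was 2.05 to 3.55 for the alike and -4.45 to -2.55 for the opposed. Their r without the double KO was not computed. Those most like Trim71 were Snora44 (0.904) and Snora75 (0.890), which are small nucleolar RNA genes, then Robo4 (0.871), Lurap1 (0.868) and Sgol2b (0.868). The most opposed to Trim71 were Pros1 (-0.887), Wdr5b (-0.877) and E430018J23Rik (-0.868). These likenesses are over 13 samples and are descriptions.

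The wider pathway was read in double KO against WT iPSC with limma, where 49.0% of all genes were called, 27.4% higher and 21.5% lower, and the median log2 difference of all genes was 0.16. Of 14 genes for proteins that act with Lin28 on let-7 precursors or process microRNAs, 2 rose and 3 fell, with a median of -0.04. Zcchc6, one of the terminal uridylyl transferases, rose by 1.15 (adjusted p = 0.00701, limma), from 18.9 ± 4.42 CPM in WT to 41.6 ± 4.65 in double KO, a call that was lost without colony 2 of the double KO. Zcchc11, the other transferase, had 0.67, and Dis3l2, the exonuclease that degrades tagged precursors, had 0.64, and neither passed. Prkra, a Dicer partner, rose by 2.48, from 9.97 to 58.6 CPM. Trim25, a cofactor of Lin28a in uridylation, fell by 2.18, from 154 to 33.5 CPM, and Xpo5, the exporter of microRNA precursors, fell by 1.38. Dicer1, the nuclease that matures let-7, fell by 0.62 (adjusted p = 0.0402, limma), and this call was lost in 10 of the 23 alternatives. Mature let-7 itself was not measured in these libraries.

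Of 26 mRNAs that the literature takes as let-7 targets, 10 rose and 9 fell, where 27.4% of all genes rose and 21.5% fell. Their median was 0.19 against 0.16 for all genes, so there was no common direction. Ccnd2, a D-type cyclin, rose by 9.50, from 5.73 ± 2.17 CPM in WT to 4071 ± 538 in double KO. Thbs1, a matrix glycoprotein, rose by 8.43, from 0.427 ± 0.519 to 168 ± 122 CPM, with 7.60 without colony 1 of the double KO and 9.27 without colony 2. Irs2, an insulin receptor substrate, rose by 3.32. Nr6a1, an orphan nuclear receptor, fell by 3.49, from 140 ± 23.3 to 12.2 ± 0.835 CPM. Hic2 and Arid3b, both transcriptional regulators, fell by 2.12 and 2.05. In miR-290 KO iPSC against WT, Ccnd2 rose and Nr6a1 fell, and in miR-302 KO iPSC none of the 26 was called. Huwe1, whose gene holds hairpins of the let-7 family, was the 1 host of 4 listed that had a value here, and it had 0.60 (adjusted p = 0.0708, limma).

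Of 6 mRNAs that the literature takes as repressed by Trim71, 5 rose and none fell, where 27.4% of all genes rose and 21.5% fell. Their median was 2.46 against 0.16 for all genes. Hoxa5, a homeobox factor, rose by 4.85, from 1.14 to 34.9 CPM. Mbnl1, a splicing regulator, rose by 3.35, from 13.4 ± 1.02 to 138 ± 7.52 CPM. The pocket proteins Rbl2 and Rbl1 rose by 2.73 and 1.19, and Cdkn1a, an inhibitor of cell cycle kinases, rose by 2.19, from 192 to 873 CPM. Egr1, an early response factor, had -0.31 from 12 reads in either group. None of the 6 was called in miR-290 KO or in miR-302 KO iPSC against WT. Trim71 itself was at 4.16 to 21.6 CPM in WT and 3.55 to 7.48 CPM in double KO, as given above. The part of Trim71 in these differences was not tested.

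Of 9 relatives with a cold-shock domain, a zinc knuckle or a TRIM-NHL fold, 4 rose and 1 fell, with a median of 0.85. Carhsp1, a small cold-shock domain protein, rose by 2.29, Trim32, a TRIM-NHL relative of Trim71, by 1.30, and Ybx3 by 1.25. Ybx2, the germ cell Y-box protein, fell by 4.75, from 308 reads in WT to 7 in double KO. Ybx1 and Cnbp had -0.06 and -0.13 and were not called. The 1 of 9 that fell stands against 21.5% of all genes, and the 4 that rose against 27.4%.

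Of 18 other RNA-binding proteins, 4 rose and 8 fell, with a median of -0.12, where 27.4% of all genes rose and 21.5% fell. Dppa5a, a KH-domain protein of pluripotent cells, fell by 10.22 on the log2 scale, for which no whole reads were recovered. Dazl, a germ cell RNA-binding protein, fell from 1049 reads in WT to 0 in double KO, at least 429-fold lower against 3 reads over the double KO libraries. Rbm47, an epithelial splicing regulator, fell by 5.23, with -3.93 without colony 1 of the double KO and -6.52 without colony 2. Mbnl2, a splicing regulator, rose by 2.85, Elavl2, which binds AU-rich RNA, by 1.66, and Msi2, a Musashi protein, by 1.49. Other genes of the list went either way: Mbnl3 fell by 3.51, and Celf2 rose by 1.43 (adjusted p = 0.0141, limma). The splicing regulators Rbfox2, Ptbp2 and Celf1 had 0.09, 0.70 and 0.46 and were not called.

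Of 11 transcription factors of the pluripotency network, none rose and 10 fell, with a median of -5.59. Among all genes, 27.4% rose and 21.5% fell. Esrrb fell by 8.94, from 315 ± 49.5 to 0.544 ± 0.0664 CPM, and Nanog fell by 8.10, from 686 ± 36.4 to 2.39 ± 0.433 CPM. Zfp42 fell by 7.24, from 92 ± 23.8 to 0.479 ± 0.141 CPM. Tcf7l1, a repressor within the network, had 0.33 and was not called. In the single KO iPSC against WT, none of the 11 was called.

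**Figure D4:**
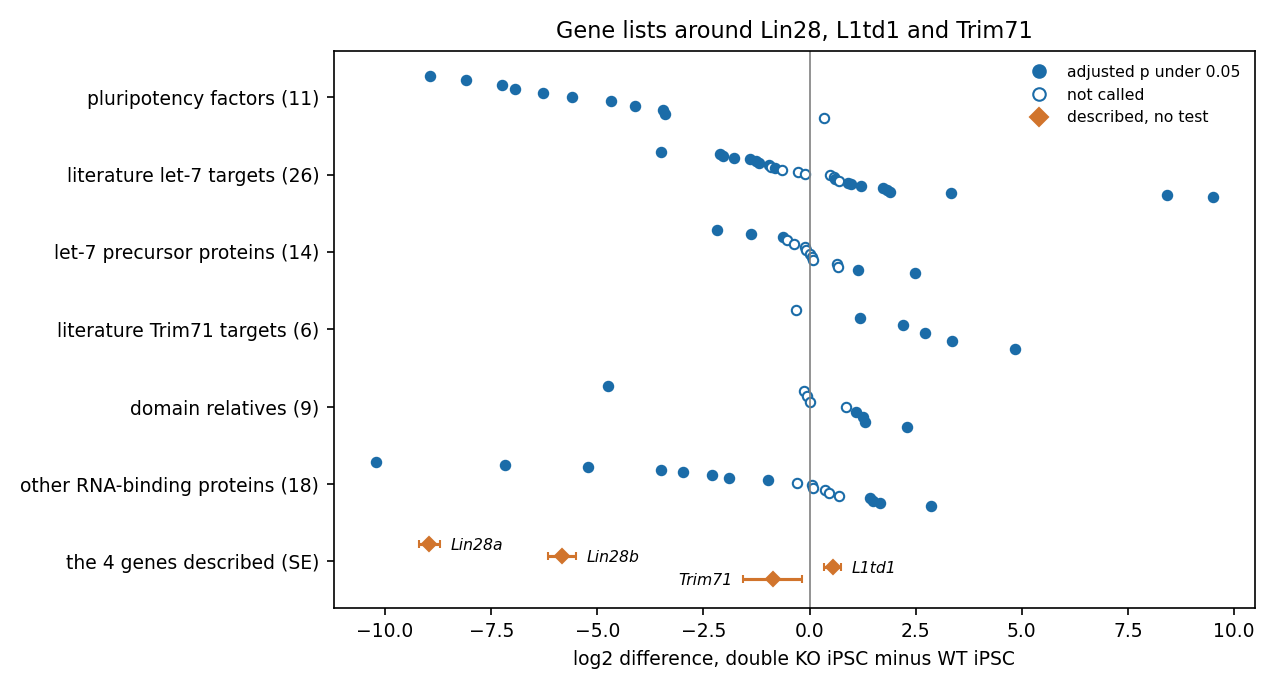
log2 differences of double KO minus WT iPSC for genes of 6 lists (the number of genes in brackets) and for the 4 genes described. Filled circles passed an adjusted p of 0.05 (limma), open circles did not, and diamonds with SE bars are the 4 genes, which have no test in this comparison. Pluripotency factors lie on the left at a median of -5.59, literature Trim71 targets on the right at a median of 2.46, and let-7 targets on both sides.

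Markers of other cell types were summed in the same libraries. For fibroblasts, the cells that were reprogrammed, 3 of 9 listed markers had values. Their sums overlapped, at 6 to 6.55 CPM in WT and 2.9 to 8.93 CPM in double KO. Of these 3, Thy1 fell by 3.86 (adjusted p = 0.00158, limma), from 3.22 to 0.151 CPM. Col1a1 and Twist1 had -1.92 and 2.55 and were not called. For primitive endoderm, 2 of 6 had values, with 4.07 to 6.76 CPM in WT and 0.23 to 2.65 in double KO, where Gata4 had 0 reads. For trophoblast, 5 of 6 had values. Their sum was 56.2 to 248 CPM in WT, 155 to 559 in miR-290 KO iPSC and 12.5 to 47.2 in double KO. Krt8, a keratin, fell by 6.2, from 103 ± 108 CPM in WT to 0.893 ± 0.349 in double KO, and Gata3 fell by 1.5. The other trophoblast markers, Hand1, Eomes and Cdx2, had -1.06, -0.04 and 0.3 and were not called. For neural cells, 4 of 6 had values, with 26.7 to 57.8 CPM in WT, 91.7 to 231 in miR-290 KO iPSC and 119 to 132 in double KO. The neural sum was 45.4 to 83.7 CPM in miR-302 KO iPSC, 63.7 to 80.9 in miR-290 KO ESC and 74.6 to 89.2 in miR-302 KO ESC. Sox1 and Nes rose in double KO by 4.59 and 2.81. They were also called higher in miR-290 KO iPSC against WT, where 1.57% of all genes were called. Tubb3 fell in double KO by 2.17. Pax6 fell too, from 43 reads in WT to 3 in double KO, a ratio of 17.6 (exact 95% interval 5.63 to 88.6), and its call was lost without colony 1 of the double KO. In the double KO, where Lin28a and Lin28b were low, the sums of pluripotency, primitive endoderm and trophoblast markers were thus below WT. The neural sum of the double KO was above WT and its fibroblast sum overlapped. A neural sum above WT was not particular to the double KO, as miR-290 KO iPSC, miR-290 KO ESC and miR-302 KO ESC had it too. The part of these marker sums in the differences was not tested.

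The seed matches were also set beside the differences of all genes with an annotated 3' UTR. The 1912 genes with a miR-290/miR-302 match had a median log2 difference of 0.41 between double KO and WT iPSC, against 0.11 for the 9851 genes without. Of those with a match 34.5% rose and 16.6% fell, and of those without 26.6% rose and 22.6% fell. Their median UTR length differed too, at 2427 against 834 bases, and the part of length was not tested. For the let-7 match, the median was 0.10 in 1143 genes with and 0.17 in 10620 without. For miR-290 KO iPSC against WT, the medians with and without a miR-290/miR-302 match were 0.24 and 0.12, and in miR-302 KO iPSC they were -0.09 and -0.12. Lin28b and Trim71, which hold a miR-290/miR-302 match, had described differences of -5.84 and -0.87. Lin28a and L1td1, which hold none, had -8.96 and 0.54. Levels in the double KO chose the 4 genes, so a relation of these values to the match was not tested.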

How the data were processed

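The authors deposited a matrix of log2 values for 12778 genes in 19 libraries. The submitters' processing notes name mm10, Trim Galore 0.66, STAR, Salmon 1.4.0, FastQC 0.11.9, MultiQC, limma and DESeq2 1.34.0, with no role or order. Per the values deposited by the authors, the unit is log2 CPM with a prior of 2.41 reads on average, shifted by a constant per gene. Whole reads within 0.02 of a read were recovered for 12239 genes (95.8%, with 99.7% of their values whole). Another 6 columns were not used. The authors' deposited comparison tables hold a mean normalized signal, log2 fold changes, a test score and p-values (raw and adjusted), per the file headers. That signal, made by the authors, lay within 5% of the value from the recovered reads for 100% of shared genes.

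Genes were tested with limma 3.58.1 (R 4.3.3) in 1 fit of 13 samples in 6 groups with 7 residual degrees of freedom, a trend on the mean, and Benjamini-Hochberg adjustment at 0.05; the code was tested on simulated data. The p-values measure the spread between these samples. No filter or pseudocount was added to the deposited values. Recovered reads ran from 6435997 to 24974510 per library. CPM were scaled to library totals set in proportion to the prior, from 6413265 to 24851605 reads. Reads carry no molecular identifiers, so exact intervals and the floor of 3 reads cover counting error only. How reads that map to several places, such as paralogs, were counted is not given in the sources used here. From each list the 3 genes called with the largest rise and the 3 with the largest fall were named, plus others chosen after their values were seen, and for each of the 4 genes the 5 most alike and the 3 most opposed genes. The 4 genes and the lists were chosen with earlier results of these data known. There were 23 alternatives: median-of-ratios scaling, each library as a sample, the replicate number as a block, no trend, only the groups compared, sample weights, a mean of at least 1 CPM, log2(CPM + 1), each sample left out, and each of 2 libraries left out. Some genes of the lists are not reported here by name.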

Additional observations from a re-analysis of the deposited data

Results flagged for a closer look

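Lin28b in double KO iPSC colony 1 library 1 had 0.57 CPM, from 9 reads, while the other 3 double KO libraries had 0, 0 and 0.0603 CPM. Its gap to the next library was 0.894 of the range of the 4 libraries, above Dixon's 95% critical value for 4 libraries. Of 12 groups of 4 libraries examined for the 4 genes, 1 was marked. Chance marks about 1 in 20 where values are independent and normal. Counts of so few reads, in libraries that share colonies, are neither, so that rate does not apply to this mark. In the same library Lin28a had 0.19 CPM, the lowest of the 4, so the excess was not shared by its paralog.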

How the results depend on the processing

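All 24 tests of the 4 genes stayed without a call in all 23 alternatives, 552 values in all, and 22 values of 9 tests changed sign. Without the miR-302 KO iPSC colony 1 library 2, Lin28b against WT was -0.02, Lin28a and L1td1 in miR-290 KO against miR-302 KO iPSC were 0.10 and 0.20, and L1td1 in miR-302 KO iPSC against ESC was -0.16. Without the miR-290 KO iPSC colony 2 library 2, Lin28a and L1td1 in miR-290 KO against miR-302 KO iPSC were both 0.06, and Lin28a in miR-290 KO iPSC against ESC was 0.00. Median-of-ratios scaling gave -0.04 for L1td1 between the ESC genotypes. With each sample left out, the range was -0.12 to 0.18 for Lin28b in miR-302 KO against WT iPSC. In miR-290 KO against miR-302 KO iPSC it was -0.36 to 0.09 for Lin28a, -0.15 to 0.10 for L1td1 and -1.16 to 0.07 for Trim71. In miR-290 KO iPSC against ESC it was -0.42 to 0.04 for Lin28a and -0.01 to 0.04 for L1td1. In miR-302 KO iPSC against ESC it was -0.06 to 0.20 for L1td1 and -0.78 to 1.38 for Trim71, and between the ESC genotypes -0.07 to 0.12 for L1td1. The cause of these changes was not tested.

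The counts of called genes moved more. In miR-290 KO against WT iPSC, 201 genes became 409 with each library as a sample, 386 with sample weights, 370 with log2(CPM + 1) and 339 without the miR-302 KO iPSC colony 1 library 2, and 2 to 300 with a sample left out, lowest without colony 2. In miR-302 KO against WT iPSC, 4 became 20 with each library as a sample, 7 with no trend, and 3 to 1273 with a sample left out, highest without colony 2 of that group. In miR-290 KO against miR-302 KO iPSC, 287 became 1061 with each library as a sample, 6 with only the groups compared, 23 with sample weights, 453 with log2(CPM + 1) and 169 without the miR-290 KO iPSC colony 2 library 2, and 15 to 1279 with a sample left out, highest without colony 2 of the miR-302 KO. For the miR-290 KO, iPSC against ESC gave 1 with each library as a sample, 4 with sample weights and 0 to 7 with a sample left out. For the miR-302 KO, it gave 1 with median-of-ratios scaling, 1 with a mean of at least 1 CPM and 0 to 955 with a sample left out. Between the ESC genotypes, 75 became 9 with each library as a sample, 0 with only the groups compared, 129 without the miR-302 KO iPSC colony 1 library 2, 33 without the miR-290 KO iPSC colony 2 library 2, and 4 to 357 with a sample left out, highest without miR-302 KO ESC library 1. Median-of-ratios scaling turned 155 higher and 46 lower in miR-290 KO against WT iPSC into 102 and 85, and 237 and 50 in miR-290 KO against miR-302 KO iPSC into 146 and 87. The cause was not tested.

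With the replicate block, the counts were 55 in miR-290 KO against WT iPSC, 2 in miR-302 KO against WT iPSC, 137 in miR-290 KO against miR-302 KO iPSC and 28 between the ESC genotypes, and no call of the 4 genes changed. Among the KO groups, correlations between same-numbered samples ran from -0.27 to 0.11, so no pairing by number was seen there. WT iPSC was not in that check. Huwe1 was called in double KO against WT, 1 gene for 0, with only the groups compared, with sample weights and without the miR-302 KO iPSC colony 1 library 2, and 0 to 1 with a sample left out. The called genes of let-7 processing that rose were 1 to 2 with a sample left out, since Zcchc6 was lost without colony 2 of the double KO. Of the 36 named list genes, Zcchc6, Dicer1, Dab2 and Pax6 lost their call in 17 of 826 values. The described difference of Lin28a from WT in the double KO was -7.57 with log2(CPM + 1), and Ybx2 had -2.63. Depth limits Lin28a and Lin28b in the double KO, with 26 and 10 reads, and 2 samples, colonies in iPSC and libraries in ESC, limit every KO group. Leaving out the double KO library with most Lin28b reads, an alternative chosen after seeing the data, raised its 3 pooled ratios, as given above.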
